A study of Drosophila melanogaster with 3 samples.

Results

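CrebB peaks were described at 10 circadian clock genes of Drosophila melanogaster: per, tim, Clk, cyc, vri, Pdp1, cwo, cry, dco and sgg. The genes were chosen by name and found by symbol among 13945 protein-coding genes on chromosomes 2, 3, 4 and X in the Ensembl annotation; all 10 were matched. CrebB is the fly member of the cAMP-responsive CREB family of basic leucine zipper (bZIP) transcription factors. Its binding was measured by chromatin immunoprecipitation and sequencing in 1 group of 3 biological replicates of whole embryos, mixed in sex and aged 0 to 24 hours; the transgenic line used expresses CrebB with GFP fused to its C terminus. The labels do not name the promoter that drives the transgene, and all replicates came from this 1 line, so there was no second genotype, treatment or time. The antibody label names CrebB, while a description of the same samples speaks of an input control; they are read here as ChIP of CrebB.

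The fly clock is a set of interlocked feedback loops. The bHLH-PAS proteins encoded by Clk and cyc bind E-boxes and activate per and tim, whose products enter the nucleus and repress that activation; vri and Pdp1 encode bZIP proteins that repress and activate Clk, and cwo encodes a bHLH repressor that binds E-boxes. The photoreceptor encoded by cry resets the clock in light, and the kinases encoded by dco (doubletime, a casein kinase 1) and sgg (shaggy, the glycogen synthase kinase 3 homologue) act on PER and TIM. In adult flies CREB has been tied to the clock through a reporter with cAMP response elements that cycles over the day. The clock is best known from neurons and tissues of the adult, whereas these samples pool all tissues of the embryo. In such samples, binding in fewer cells and weaker binding per cell cannot be told apart.

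Peaks that passed the authors' threshold on reproducibility form the optimal list. A longer list of 30000 peaks, the pooled list, was called on all replicates together, and ranks given here are ranks by signal within a list. The optimal peaks are the top of the pooled list. The signal is the peak caller's own value and has no stated scale; it ran from 40.3 to 3466.1 in the pooled list, and 151.9 was the lowest value among the optimal peaks. Each replicate had its own list of 30000 peaks. Of the pooled peaks, 10663 had a q-value under 0.05; the authors describe this list as holding peaks and background. Without read numbers the depth is unknown.

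Of the 10 clock genes, 5 had an optimal peak with its summit in the gene or within 2000 bp of it (50%), against 32.7% of all protein-coding genes. These were sgg, vri, cwo, Pdp1 and dco: the genes of the loops around vri, Pdp1 and cwo, and the 2 kinases. The activators Clk and cyc, the repressors per and tim, and the photoreceptor gene cry had none. The genes with an optimal peak were also mostly longer. They spanned 7126 bp (dco) to 55912 bp (Pdp1), against 2169 bp (cyc) to 14134 bp (tim) for the genes without one. Among genes of 20 kb and over, 3 of 3 members (vri, Pdp1 and sgg) had an optimal peak, against 54.9% of all genes of that length. Between 5 and 20 kb, 2 of 5 members did (cwo and dco, not per, tim or Clk), against 47.6%, and under 5 kb 0 of 2 did (cyc and cry), against 27.0%. With 2 to 5 members a class, these counts are too small to be set apart from the background shares. Per 10 kb of gene and flanks, Pdp1 (1.0), vri (0.76) and sgg (0.4) had more optimal peaks than the pool of all genes of 20 kb and over (0.239), with 1 of the Pdp1 peaks at the start of a neighbouring gene. Between 5 and 20 kb, cwo (1.21) and dco (0.9) were above the value for all genes of that length (0.562), while per, tim and Clk were at 0. The values for all genes include genes without an optimal peak, and at dco 1 peak was enough to exceed 0.562. In each replicate the peaks of highest signal were also taken, as many as the optimal list holds. Of the 10 members, 4, 5 and 5 had a summit of these in reach in replicates 1, 2 and 3, against 32.0%, 32.0% and 32.9% of all protein-coding genes. vri, Pdp1, cwo and sgg were among them in every replicate, cyc in replicate 2 and dco in replicate 3. The summit counted for cyc lay downstream of the gene, nearer to the start of the neighbouring gene Cyp305a1 than to that of cyc.

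**Figure D1:**
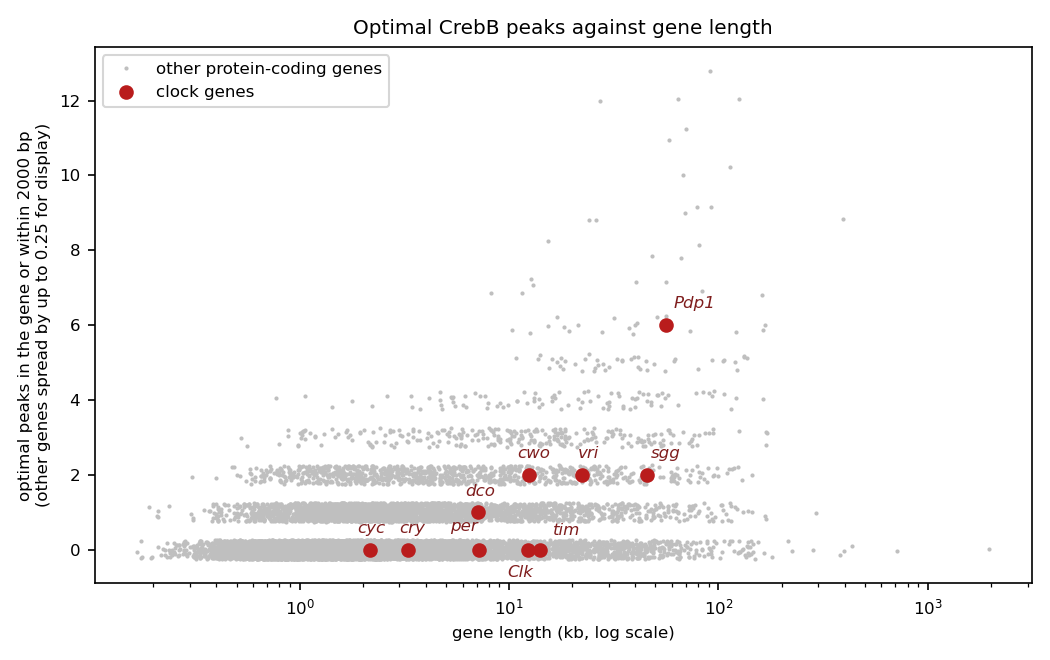
Number of optimal peaks in or within 2000 bp of each protein-coding gene (y axis) against gene length in kb (x axis, log scale), with the 10 clock genes in red and the other genes in grey, spread slightly up and down so that points show. Pdp1 has 6 optimal peaks, sgg, vri and cwo have 2 each, dco has 1, and per, tim, Clk, cyc and cry lie at 0.

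Every member had at least 1 peak in the pooled list (10 of 10, against 78.8% of all protein-coding genes), but the strongest peak of each gene differed widely in rank. The order of the pooled ranks was sgg (130), vri (568), cwo (747), Pdp1 (770), dco (2729), cyc (4857), tim (7532), cry (14457), per (19092) and Clk (22683). In the single replicates the strongest peak in reach of a gene need not be the same one. For sgg it ranked 121, 118 and 208 in replicates 1, 2 and 3, ahead of every other member in every replicate. The ranks of vri (822, 658 and 429), cwo (640, 989 and 973) and Pdp1 (443, 1009 and 487) overlapped and did not differ beyond the spread between replicates. Those of dco (4987, 5148 and 1569), cyc (4521, 3468 and 13645) and tim (9557, 6029 and 4414) overlapped as well. For cyc, the pooled peak and those of replicates 1 and 2 lay downstream, nearer to the start of the neighbouring gene Cyp305a1. Only the peak of replicate 3 lay at the start of cyc. At per the ranks were 17419, 20700 and 24573. Replicate 1 listed no peak at cry or at Clk; replicates 2 and 3 gave 14004 and 6614 at cry, and 18637 and 15909 at Clk.

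**Figure D2:**
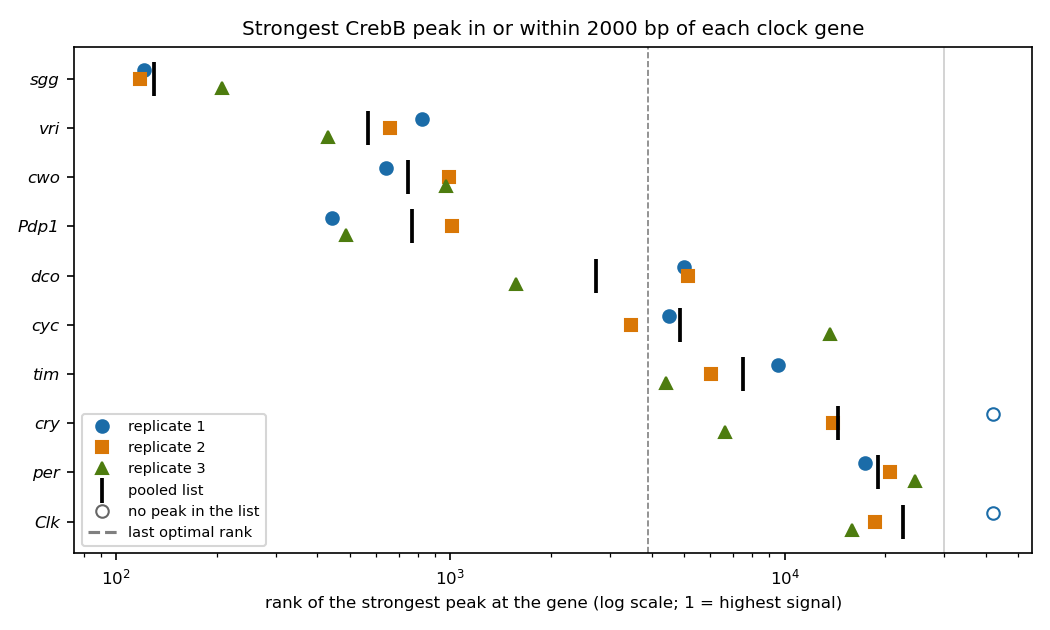
Rank of the strongest CrebB peak in or within 2000 bp of each clock gene (x axis, log scale, 1 being the highest signal) in the 3 replicate lists (coloured symbols) and the pooled list (black bars); open symbols mark replicates whose list has no peak there, and the dashed line is the last optimal rank. The sgg symbols lie farthest left, at 118 to 208, and those of per between 17419 and 24573.

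The 201 bases centred on a summit are printed below for the strongest peak of sgg, vri, cwo and Pdp1, all in introns, for the single optimal peak of dco, and for the optimal peak at Pdp1 that holds an E-box. Capitals mark the E-box CACGTG, its variant CACGTT and the half-site TGACG of the cAMP response element (CRE) on either strand; the first 4 windows hold none of these and are in lower case throughout. Coordinates are those of dm6, the sequence is that of the RefSeq copy of Release 6, and each window is written along its gene.
sgg, rank 130, chrX:2646334-2646534, + strand: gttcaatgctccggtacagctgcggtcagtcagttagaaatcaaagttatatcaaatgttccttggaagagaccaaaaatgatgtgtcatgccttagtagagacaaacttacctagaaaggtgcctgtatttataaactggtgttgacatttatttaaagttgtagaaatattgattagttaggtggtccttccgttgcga
vri, rank 568, chr2L:5299370-5299570, + strand: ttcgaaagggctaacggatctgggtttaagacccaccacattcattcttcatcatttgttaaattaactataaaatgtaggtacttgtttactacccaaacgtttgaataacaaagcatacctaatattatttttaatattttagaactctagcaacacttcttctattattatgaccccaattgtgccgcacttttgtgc
cwo, rank 747, chr3R:10393833-10394033, + strand: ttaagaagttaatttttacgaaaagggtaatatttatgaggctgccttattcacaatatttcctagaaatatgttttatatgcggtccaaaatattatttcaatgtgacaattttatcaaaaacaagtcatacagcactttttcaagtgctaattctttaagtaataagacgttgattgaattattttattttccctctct
Pdp1, rank 770, chr3L:7850968-7851168, - strand: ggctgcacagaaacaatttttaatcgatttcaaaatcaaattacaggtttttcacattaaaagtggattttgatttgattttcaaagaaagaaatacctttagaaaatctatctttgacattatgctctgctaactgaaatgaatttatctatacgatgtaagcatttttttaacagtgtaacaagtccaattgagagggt
dco, rank 2729, chr3R:31059140-31059340, - strand: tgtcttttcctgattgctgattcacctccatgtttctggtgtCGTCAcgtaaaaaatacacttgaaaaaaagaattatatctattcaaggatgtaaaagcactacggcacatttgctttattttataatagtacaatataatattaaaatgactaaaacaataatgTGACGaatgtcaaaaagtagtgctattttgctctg
Pdp1, rank 3261, chr3L:7835235-7835435, - strand: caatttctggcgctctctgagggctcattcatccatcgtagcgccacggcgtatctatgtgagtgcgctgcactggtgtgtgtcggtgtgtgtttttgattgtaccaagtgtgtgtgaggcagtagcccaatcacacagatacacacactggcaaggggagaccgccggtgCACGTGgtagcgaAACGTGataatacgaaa

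The second set shows 30 bases around sites that no optimal peak reached, since they lie at the starts of the genes whose products close the main loop. Capitals mark the E-box or, in the last one, the CRE palindrome.
per, E-box upstream of the start, chrX:2685038-2685067, + strand: aaagccgccgctCACGTGgcgaactgcgtg
tim, E-box downstream of an internal start, chr2L:3507405-3507434, - strand: acgttgtgattaCACGTGagccgatttccc
tim, CRE palindrome upstream of the start, chr2L:3508211-3508240, - strand: gaataacatttTGACGTCAaatcgcctatt

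The kinase gene sgg (FBgn0003371, chromosome X, 2633952 to 2679553, + strand) had the strongest peak of the 10 genes. The peak spanned 2646303 to 2646589 with a signal of 806.7 and a q-value of 0.000164. Its summit lay 203 bp upstream of the transcription start site (TSS) of the single transcript sgg-RQ, 12482 bp inside the gene and in an intron of longer transcripts. No TSS of another gene lay within 2000 bp. In the replicate lists the summit was 1, 8 and 7 bp away, and the signals were 305.4, 271.1 and 215.1. The first window above is this summit. A second optimal peak (2647376 to 2647771, signal 239.5, rank 1605) had its summit 937 bp downstream of the same TSS, in an intron. It ranked 1829, 1606 and 1758 in the replicates (mean 1731.0 ± 113.9, SD, n = 3), the smallest spread in rank after that of the stronger sgg peak (149.0 ± 51.1). sgg has 11 annotated TSSs, and the start of sgg-RQ was the only one with an optimal summit within 500 bp. The TSS shared by 6 transcripts at the gene's beginning had a pooled summit 18 bp away, but at rank 12927 with a signal of 70.3. A pooled peak of rank 4938 (signal 131.8) lay 61 bp upstream of the TSS of sgg-RD and sgg-RP, and ranked 6503, 3917 and 11783 in the replicates.

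At vri (FBgn0016076, chromosome 2L, 5288944 to 5311223, + strand), the repressor of Clk, the stronger of 2 optimal peaks again marked an internal start. It spanned 5299373 to 5299550 (signal 403.9, rank 568), and its summit lay 177 bp upstream of the TSS of vri-RC, in an intron of vri-RE. The replicate summits lay 22, 53 and 42 bp away, with signals of 129.1, 125.6 and 150.3. All 3 replicates thus placed it among their first 1000 peaks. The weaker peak (5293205 to 5293600, signal 200.7, rank 2313) was intronic, 4459 bp downstream of the TSS of vri-RE. It ranked 2188 and 1951 in replicates 2 and 3, and the nearest summit of replicate 1 was 148 bp away at rank 4563. The TSS shared by vri-RA, vri-RD and vri-RF, the start with the most transcripts, had a pooled summit 23 bp away at rank 11458 (signal 76.6), and no optimal one. That of vri-RE had no pooled summit closer than 597 bp.

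Pdp1 (FBgn0016694, chromosome 3L, 7811458 to 7867369, − strand), which encodes an activator of Clk, held the most optimal peaks of the 10 genes, 6. Of genes of 20 kb and over, 3.36% had 6 or more and 32.3% had 2 or more. Of the 6 at Pdp1, 1 lay outside the gene at the start of the neighbouring gene CG32365. No share is given for peaks inside the gene alone. The peak of highest signal (7850981 to 7851189, signal 351.3, rank 770) was intronic, 4480 bp downstream of the TSS that 7 of the 13 transcripts share. It ranked 1077, 1009 and 487 in the replicates. The next (7854955 to 7855093, signal 338.0, rank 829) lay in a 5′ UTR, 509 bp downstream of the same TSS, just past the 500 bp used for promoters. It ranked 443 and 1081 in replicates 1 and 2, and the nearest summit of replicate 3 was 101 bp away at rank 1773, just past the 100 bp used for recurrence. A pooled peak of rank 8440 lay 401 bp upstream of that TSS, and replicate 3 ranked it 1947, against 29334 and 19378 in replicates 1 and 2.

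The other 4 optimal peaks of Pdp1 were weaker. One at 7868832 to 7869227 (signal 210.4, rank 2089) lay 1661 bp upstream of the first TSS of Pdp1 but 12 bp from a TSS of the neighbouring gene CG32365, so it marks the start of that gene; it ranked 2102, 1309 and 5608. An intronic peak at 7863714 to 7864109 (187.6, rank 2607) ranked 3009, 2770 and 2611, although the replicate summits were 58 to 90 bp from the pooled one. The intronic peak at 7835137 to 7835532 (167.7, rank 3261), 2262 bp upstream of the TSS of Pdp1-RD and Pdp1-RJ, is the one whose E-box is printed above; it ranked 3199, 2809 and 7161. The last (7861105 to 7861500, 152.8, rank 3867) ranked 4074, 7142 and 15595, and in replicate 3 its q-value was 0.304. It lay just inside the optimal list, whereas a peak in an intron of cwo with a signal of 150.3 (rank 3967) lay just outside. An optimal peak 4473 bp beyond the end of Pdp1 (155.8, rank 3743) was past the 2000 bp limit.

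At cwo (FBgn0259938, chromosome 3R, 10388258 to 10400752, + strand), whose 3 transcripts share 1 TSS, the stronger of 2 optimal peaks was far from any start. It spanned 10393841 to 10394006 (signal 355.4, rank 747) in an intron, 5675 bp downstream of the TSS, and the replicates ranked it 640, 989 and 973 with signals of 142.3, 102.7 and 103.4. Nearer the start, a peak in the 5′ UTR at 10388719 to 10389114 (175.3, rank 2985) had its summit 659 bp downstream of the TSS and ranked 2112, 4080 and 2576. The TSS itself had a pooled summit 48 bp away that did not reach the optimal list (rank 5154, signal 128.6); its ranks were 6729, 3970 and 6527.

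The kinase gene dco (FBgn0002413, chromosome 3R, 31054085 to 31061210, − strand) had 1 optimal peak, in an intron 1533 bp downstream of the TSS of dco-RE (31059042 to 31059437, signal 183.4, rank 2729). It ranked 1569 in replicate 3, against 5899 and 5148 in replicates 1 and 2, and the signals were 80.0 in replicate 3 against 48.5 and 46.2. A pooled peak 261 bp upstream of the TSS shared by the other 4 transcripts had a signal of 137.1 (rank 4626) and ranked 4987, 5841 and 10580. Of the 5 genes with an optimal peak, dco was the only one with no peak among the strongest of all 3 replicates.

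**Figure D3:**
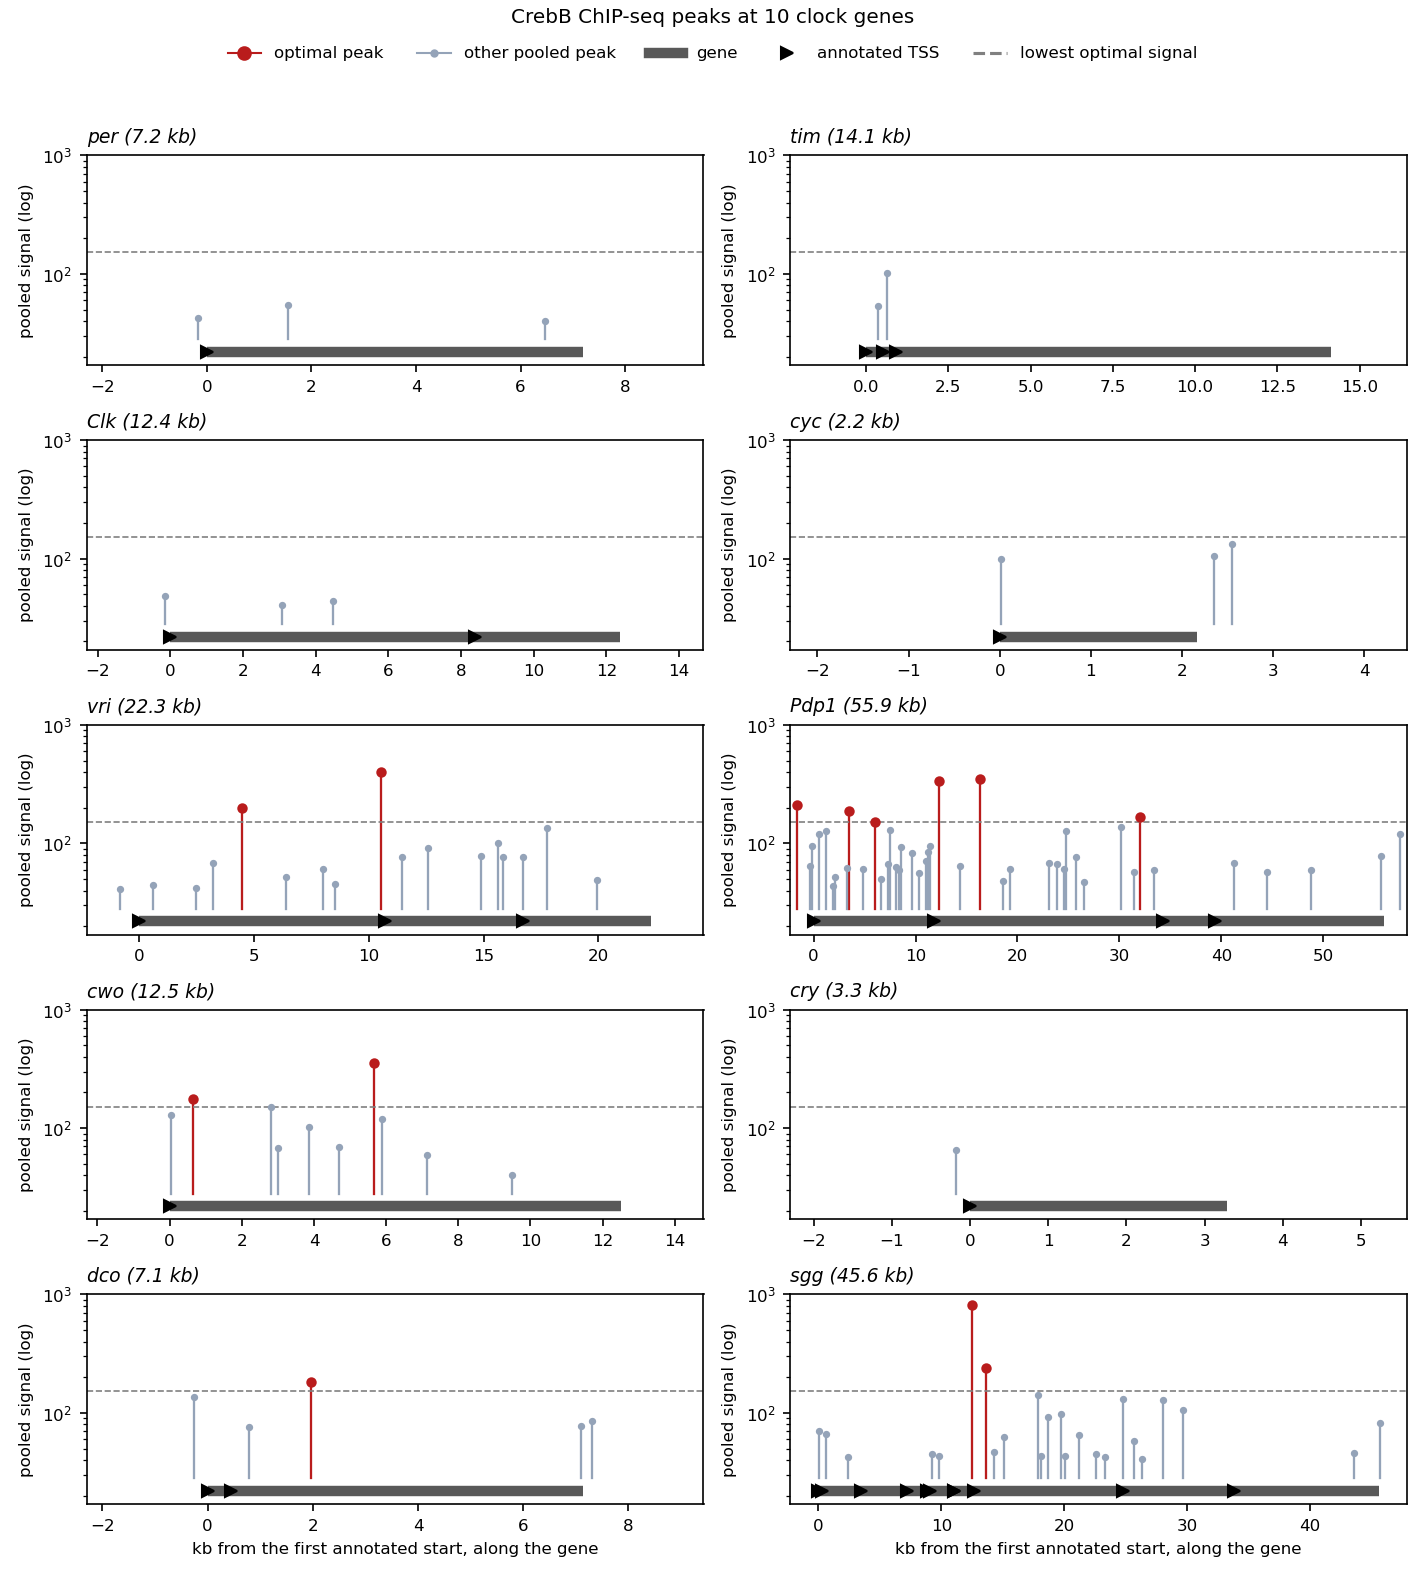
Pooled-list peaks at the 10 clock genes, each panel running along 1 gene from its first annotated start (x axis, kb), with signal on a log y axis; red marks optimal peaks, grey-blue the other pooled peaks, arrowheads the annotated TSSs and the dashed line the lowest optimal signal, 151.9. Red peaks stand in vri, Pdp1, cwo, dco and sgg, mostly away from the first start, while no peak of per, Clk or cry exceeds 65.2.

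Of the 13 optimal peaks at the 10 genes, 10 had the summit in an intron, 2 in a 5′ UTR and 1 upstream. None lay in a coding exon or a 3′ UTR. For these classes no share over all optimal peaks is given, so the counts describe the members alone. Within 500 bp of a member's own TSS lay 2 summits, those at sgg-RQ and vri-RC, so 2 of 10 members had an optimal promoter peak (20%), against 18.7% of all protein-coding genes. The clock genes were thus near the background by this count. The 10 genes have 29 annotated TSSs between them. An optimal summit lay within 500 bp of 2 of these (6.9%), against 17.2% of all TSSs of protein-coding genes, and a pooled summit within 500 bp of 20 (69.0%), against 56.8%. TSSs of 1 gene can lie close together, and 11 of the 29 are those of sgg. Within 1000 bp, cwo and Pdp1 also had an optimal peak at a TSS, which made 4 of 10. The 18.7% of all protein-coding genes holds for 500 bp, and the share at 1000 bp is not given.

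The 13 peaks differed in how well they recurred between replicates. A peak was called recurrent when a summit within 100 bp was among the strongest peaks of each replicate, taken to the length of the optimal list as above. This held for 6 of the 13 peaks (46.2%), against 50% of all optimal peaks: both at sgg, the stronger ones at vri and cwo, and the Pdp1 peaks of rank 770 and 2607. Recurrence did not follow the pooled signal throughout: the Pdp1 peaks of rank 829 and 2089 and the vri peak of rank 2313 were not recurrent, although their signals (338.0, 210.4 and 200.7) were above that of the recurrent Pdp1 peak of rank 2607 (187.6). The peak of rank 829 missed only through the distance limit, as its replicate 3 summit ranked 1773 but lay 101 bp away. In the full replicate lists 11 of 13 recurred (84.6%), against 88.6%. The exceptions were the Pdp1 peak in the 5′ UTR, through replicate 3, and the weaker vri peak, through replicate 1. The optimal list was derived from the same replicate lists, so this recurrence is a description. The count was 10 when 2 times as many ranks of each replicate were taken. Counting peaks supported by the other replicates alone, it was 7 without replicate 1, 7 without replicate 2 and 9 without replicate 3.

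**Figure D4:**
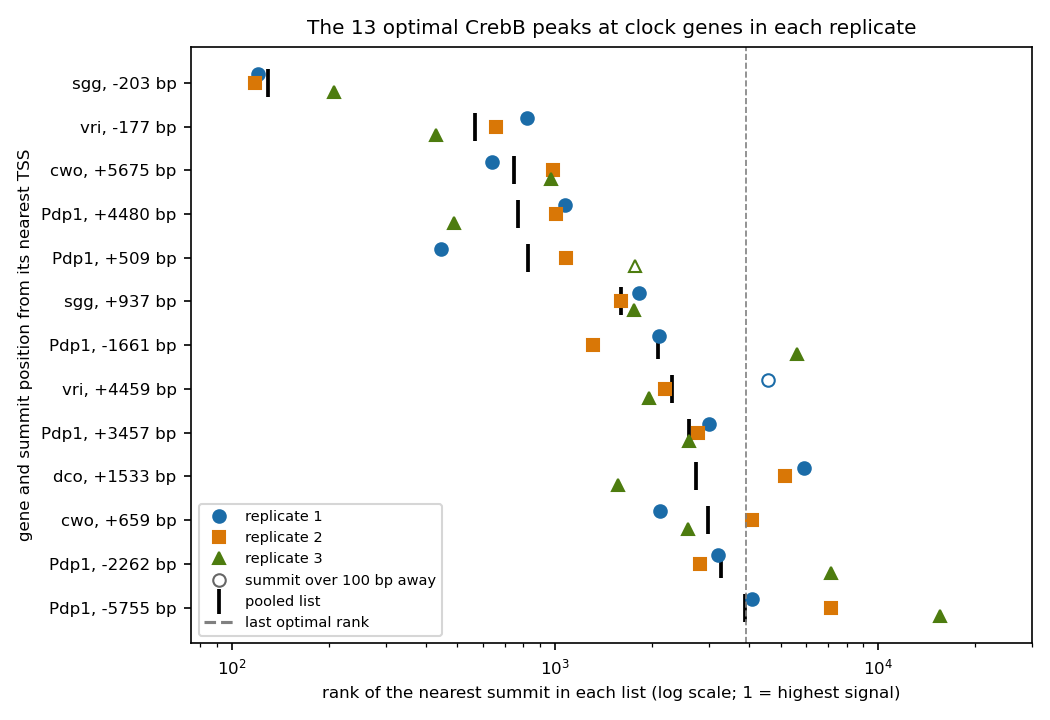
Rank in each replicate list (x axis, log scale) of the summit nearest to each of the 13 optimal peaks at clock genes, which are named by gene and by the distance of the summit from its nearest TSS; open symbols mark summits over 100 bp away, black bars the pooled rank and the dashed line the last optimal rank. Both sgg peaks lie left of the line in all replicates, while the Pdp1 peak of pooled rank 3867 reaches rank 15595 in replicate 3.

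The 5 genes without an optimal peak had weak peaks at best. At tim (FBgn0014396, chromosome 2L, 3493986 to 3508119, − strand), the partner of per, a pooled peak at 3507293 to 3507688 had a signal of 101.2 (rank 7532, q-value 0.0102), with its summit in a 5′ UTR 113 bp downstream of the TSS of tim-RO. That summit also lay 273 bp upstream of the TSS that 6 of the 10 tim transcripts share. The replicates had summits 130, 140 and 113 bp from the pooled one. Their ranks were 9557, 6029 and 4414, with q-values of 0.0308, 0.00771 and 0.00261. Each replicate thus listed a peak in this region, at positions that differed by more than 100 bp from the pooled summit. The tim E-box printed above lies 71 bp from the pooled summit and, like it, upstream of the TSS shared by 6 transcripts. The CRE palindrome, 107 bp upstream of the first TSS, lies 464 bp from any pooled summit.

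At cyc (FBgn0023094, chromosome 3L, 19813770 to 19815938, − strand), the partner of Clk, a pooled peak sat on the start: its summit lay 14 bp downstream of the TSS (signal 100.1, rank 7667) and the replicates ranked it 10109, 7726 and 13645. The 2 stronger pooled peaks in reach (133.0 and 105.7) lay downstream of cyc, 53 and 252 bp from a TSS of Cyp305a1, a neighbouring cytochrome P450 gene. Those peaks are therefore nearer to the start of Cyp305a1 than to that of cyc.

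At cry (FBgn0025680, chromosome 3R, 19212154 to 19215442, + strand), the 1 pooled peak had its summit 173 bp upstream of the TSS, a signal of 65.2 (rank 14457) and a q-value of 0.163. A TSS of the long non-coding RNA gene lncRNA:CR46393 is equally near. At per (FBgn0003068, chromosome X, 2685580 to 2692780, + strand) the pooled peaks had signals of 54.5, 42.6 and 40.4, and at Clk (FBgn0023076, chromosome 3L, 7763233 to 7775603, − strand) of 48.6, 43.9 and 40.8. All 6 had q-values over 0.05, from 0.323 to 0.629. The peaks nearest the starts of per and Clk lay 177 bp and 131 bp upstream, at ranks 27687 and 22683. These values are close to the lowest signal of the pooled list, and no peak at per or Clk stood out from the background of these lists. The optimal peak nearest to the TSS of per was 18315 bp away.

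Below the optimal threshold, 95 pooled peaks at the members overlapped no optimal peak. All pooled peaks in reach of a member ran from 1 at cry to 42 at Pdp1. Of the 95, 22 had a summit within 100 bp in all 3 full replicate lists, and the share over all such pooled peaks is not given. The 22 were 8 at Pdp1, 5 at sgg, 4 at vri, 3 at cwo, and 1 each at dco and cyc. None were at per, tim, Clk or cry. Besides those given above, the ones at sgg had ranks of 4414, 7009, 10353 and 14096, those at vri 4701, 7566, 11215 and 11423, and those at cwo 3967 and 7484. Those at Pdp1 ran from rank 4637 to 21596. The Pdp1 peak of rank 5872 among them lay beyond the gene's end, 30 bp from a TSS of CG32369. Over all 10 loci there were 110 pooled peaks, 79 of them in introns, 9 in 5′ UTRs and 6 in coding exons. Here too, no share over all pooled peaks is given for these classes.

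Neither the E-box nor the CRE was common at the summits. Of the 13 optimal peaks, 1 had CACGTG within 100 bp of its summit, the Pdp1 peak of rank 3261, whose E-box was centred 73.5 bp away. Over all optimal peaks the share was 3.04%, and 2.43% had one in a window 1000 bp to the right. The CRE palindrome TGACGTCA was at 0 of 13, against 0.587% of all optimal peaks. The half-site TGACG, on either strand, was at 1 of 13, against 16.2%: dco had 2 of them, centred 68.0 and 56.0 bp from its summit on opposite sides. The E-box variant CACGTT was at 2 of 13, against 6.56%, with 2 copies in the cwo peak in the 5′ UTR and 1 beside the E-box of Pdp1. The variant and the E-box share their first 5 letters but are different sites here. At this number of peaks, counts of 0 to 2 do not show a difference from the background.

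No window held the sequence TTATGTAA, a site of the PAR bZIP kind to which the products of vri and Pdp1 bind, against 1.79% of all optimal peaks. None held the promoter elements TATCGATA (DRE, 3.88% of all optimal peaks) or GGTCACAC (part of the M1BP site, 3.22%). The repeat GAGAG was at 4 of 13, against 28.1%. It was clustered in the Pdp1 peak in the 5′ UTR, where all 11 copies, in separate runs of overlapping matches, lay on 1 side of the summit. The windows of the strongest cwo and Pdp1 peaks had a GC content of 26.9% and 28.9%, those of sgg and vri 37.8% and 33.3%, against a mean of 39.3% ± 8.2 (SD) over all optimal peaks.

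The loci differed in how many E-boxes they hold. Over the 10 genes and their flanks there were 51 CACGTG sites, or 2.29 per 10 kb, against 1.23 per 10 kb over chromosomes 2, 3, 4 and X. The density was highest at per (8 sites, 7.14 per 10 kb) and cwo (10 sites, 6.06 per 10 kb), followed by dco (2.7) and Pdp1 (13 sites, 2.17). At cyc (1.62), vri (1.52), sgg (1.41), cry (1.37), Clk (1.22) and tim (1.1) it was close to that of the chromosomes. Of the 51 sites, 1 lay within 100 bp of an optimal summit (1.96%), against 0.749% of all CACGTG sites on these chromosomes. Within 100 bp of any pooled summit lay 7 (13.7%), against 5.81%: 4 at Pdp1, 2 at sgg and 1 at tim. These are small counts, 1 and 7 sites, and their difference from the background was not tested. Over the 10 loci there were 4.94 pooled peaks per 10 kb, against 2.24 per 10 kb over these chromosomes, but the loci differed. Pdp1 (7.01), vri (6.47) and sgg (4.84) were above the value for all genes of 20 kb and over (2.12). Between 5 and 20 kb this value was 3.44, with cwo (6.06) and dco (4.49) above it. Below it were per (2.68), Clk (1.83) and tim (1.1). Under 5 kb it was 3.27, with cyc (4.86) above and cry (1.37) below. At per the E-box 527 bp upstream of the TSS, in the upstream region through which CLK and CYC are known to act, was 350 bp from the nearest pooled summit, which ranked 27687. At vri, 4 E-boxes lay 971 to 2295 bp upstream of the TSS of vri-RA, vri-RD and vri-RF, and the pooled summits nearest to them were 102 to 453 bp away. The E-box 152 bp upstream of the first TSS of Pdp1 was 6 bp from a pooled summit of rank 8459, which ranked 4540 and 6231 in replicates 1 and 2 and had no counterpart within 100 bp in replicate 3. Of CRE palindromes there were 2, at tim and in Pdp1, the second 379 bp from a pooled summit.

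**Figure D5:**
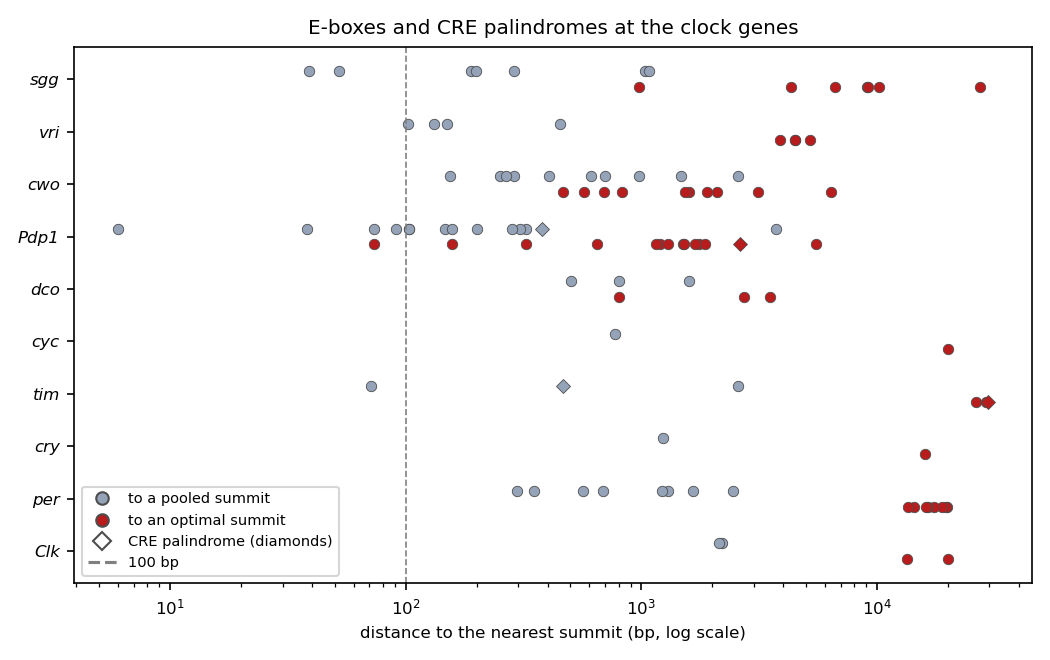
Distance from each E-box (circles) and CRE palindrome (diamonds) at the clock genes to the nearest pooled summit (grey-blue) and the nearest optimal summit (red), in bp on a log axis; the dashed line is 100 bp. A single red circle, at Pdp1, lies left of the line, and the sites at per, tim, Clk, cyc and cry lie over 10 kb from an optimal summit.

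Other genes known to act in the clock were read in the same way from a list of 26, of which 25 were found by symbol and 1 by a synonym. An optimal peak lay within 500 bp of a TSS in 7 of the 26 (26.9%), against 18.7% of all protein-coding genes. This share is not matched for gene length: 8 of the 26 genes span 20 kb or more, against 1013 of all 13945. Whether a TSS of another gene lay nearer to these peaks is not given. Eip75B, an ecdysone-induced nuclear receptor gene, had the strongest promoter peak (signal 495.8, rank 369). Next came mts (439.3, rank 473) and wdb (403.3, rank 571), which encode the catalytic and a regulatory subunit of protein phosphatase 2A, and ctrip (321.7, rank 907), which encodes a ubiquitin ligase. Each of these 4 was recurrent in all 3 replicates, as was the peak of Atx2 (182.4, rank 2749), whose product acts in the translation of per. The kinase genes CkIalpha (178.1, rank 2897) and nmo (165.6, rank 3358) had weaker ones, each among the strongest peaks of 1 replicate. Eip75B, wdb, ctrip and nmo are among the genes of 20 kb and over. Of the kinases and phosphatase subunits in the list, CkIIalpha, CkIIbeta and tws had no optimal promoter peak. The neuropeptide gene Pdf, its receptor gene Pdfr and the output gene to had no pooled peak in the gene or within 2000 bp.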

How the data were processed

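Peaks were taken from the lists that the authors deposited for 3 biological replicates of CrebB ChIP-seq, the pooled list and the optimal list. Per the companion text deposited with them, each list was called on assembly dm6 against 1 control alignment, and the optimal list was made from the other lists with an IDR threshold. For the aligner and the caller, name and version are not given in the sources used here. The authors' lists give a signal score per peak, used to rank peaks within a list, and the authors' −log10 q-value, and the deposited summit offset set the summit. Per the labels, chromatin was sonicated (size range 200 to 800). Gene models were Ensembl release 115; all peak ends lay within the RefSeq chromosome lengths. Of the 13 optimal peaks at the members, 8 had the common width of 396 bp, with the summit at the centre, which limits how finely it is placed.

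A peak belonged to a gene when its summit lay in it or within 2000 bp, and was a promoter peak within 500 bp of a TSS. Motifs were counted on both strands, wholly within 100 bp of the summit; overlapping matches counted separately, and TGACG also counts inside TGACGTCA. No test was run, since there was 1 group; counts stand beside the share over all genes or peaks. The counting was checked on simulated peaks (Python 3.11.15, numpy 2.4.6, pandas 2.3.3). The members, lists and motifs were chosen with earlier results of these data known. All members were named, with every optimal peak, pooled peaks found in all 3 replicate lists or strongest at a member without an optimal peak, and other clock genes with an optimal promoter peak.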

Additional observations from a re-analysis of the deposited data

How the results depend on the processing

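Of 68 counts recomputed under other settings, 46 stayed within 1.5 times the reported value and 22 did not. The 46 include the counts of optimal peaks with TGACGTCA, which were 0 throughout. Stricter settings could not lower a count of 0, so those say nothing about stability. The count of members with an optimal peak stayed at 5 with flanks of 1000 or 5000 bp, with the gene alone and by any base of the peak. It was 4 in the stronger 50% of the optimal list and 4 with recurrent peaks alone. With any 1 replicate left aside and support asked of the others, it was also 4. No list was called again without a replicate. All of these settings filter the same optimal list, so the count could only stay or fall. With pooled peaks of q-value under 0.05 it was 7. The number of members with an optimal promoter peak was 4 at 1000 bp from a TSS and 7 with pooled peaks of q-value under 0.05. The shares of all protein-coding genes at these settings are not given. Optimal peaks at members numbered 6 in the stronger 50% of the optimal list, 6 among those recurrent in all replicates and 44 with pooled peaks of q-value under 0.05, which was also the count of pooled peaks at members under that limit (44). Peaks with CACGTG numbered 0 in the first 2 of these sets and 5 in the third, 0 within 50 bp and 2 within 250 bp. Recurrent peaks numbered 10 with 2 times as many ranks and 11 with the full lists, but 4 with summits within 50 bp. Other clock genes with a promoter peak numbered 4 in the stronger 50% of the list and 16 with a q-value under 0.05, again without shares over all genes. Support by the other replicates alone gave 7 to 9 optimal peaks, 43 to 53 pooled peaks and 0 to 1 peaks with CACGTG, fewer by construction. No paired analysis was possible because there was 1 group. Depth is unknown, so a locus without a listed peak shows only that its signal was under that of the list.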

Other observations

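Beyond promoters, 14 of the 26 other clock genes had an optimal peak in the gene or within 2000 bp (53.8%), against 32.7% of all protein-coding genes. Longer genes more often have a peak: by length, 2 of 8 of these genes under 5 kb had one, against 27.0% of all genes of that length, 7 of 10 between 5 and 20 kb, against 47.6%, and 5 of 8 of 20 kb and over, against 54.9%. Eip75B, which is 113744 bp long, held 10 of them, 6 recurrent in all 3 replicates, and ctrip held 5, 3 of them recurrent. Hr51, which encodes a nuclear receptor, held 2, both recurrent and neither within 500 bp of a TSS. Pdfr, the receptor gene of the clock neuropeptide, spans 26435 bp and had no peak in the pooled list, as was the case for 5.23% of genes of 20 kb and over.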
